A study of Homo sapiens with 12 samples.

Results

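SOX2-depleted NTera-2 cells were compared with SOX2-depleted 2102Ep cells. Both are human embryonal carcinoma cell (hECC) lines, grown from malignant germ cell tumours and carrying features of pluripotent stem cells. 2102Ep cells resist differentiation by retinoic acid, whereas NTera-2 cells can be driven towards neurons by it. The study states that 2102Ep cells can still be made to differentiate, by growth at low density or by silencing SOX2 and OCT4. In both groups SOX2, a transcription factor of the pluripotency network, had been targeted with siRNA (siSOX2), and each line also had a group that received a negative control siRNA (NC). Transfection lasted 6 h and RNA was taken after a further 72 h. The 6 samples, 3 labelled biological replicates per line, were 6 of 12 in the series. The 2 lines were not treated alike: 2102Ep cells, at passage 35 to 50, received 15 nM siRNA in Lipofectamine 2000, and NTera-2 cells, at passage 40 to 50, received 30 nM in Lipofectamine RNAiMAX, so line, reagent and dose cannot be told apart. SOX2 mRNA was not among the assays, and how far it was depleted in each line was not analysed here.

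MicroRNAs (miRNAs) are short RNAs that lower the output of mRNAs whose 3′ ends pair with bases 2 to 8 of the miRNA, the seed. Many are cut from shared precursor transcripts, so neighbours in a cluster are often made together, and each hairpin can give a mature miRNA from either arm, the lesser one marked with an asterisk in the names used here. In hECC and embryonic stem cells the miR-302 and miR-371 clusters are known as pluripotency miRNAs, the primate-specific chromosome 19 cluster (C19MC) is best known from placenta and undifferentiated cells, the miR-17 cluster and its paralogs accompany proliferation, and the miR-200 family represses the transcription factors ZEB1 and ZEB2 and marks epithelial cells.

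The sequences below, from the RefSeq table on GRCh38.p14, are those on which the comparison turned, with the seed in capitals. The first set shares the seed AAGUGCU although the members come from 3 loci: the miR-302 cluster at chr4:112647874-112648557 on the minus strand, the miR-371 cluster at chr19:53787675-53788773, and C19MC at chr19:53666679-53761222, both on the plus strand. Mature sequences were taken for 55 assays, matched by name and arm.
miR-302a-3p: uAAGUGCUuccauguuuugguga
miR-302b-3p: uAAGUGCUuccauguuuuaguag
miR-302c-3p: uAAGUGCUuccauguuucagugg
miR-302d-3p: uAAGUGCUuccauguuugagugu
miR-372-3p: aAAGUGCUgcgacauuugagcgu
miR-373-3p: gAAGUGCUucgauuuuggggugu
miR-520b-3p: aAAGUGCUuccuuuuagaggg
miR-520c-3p: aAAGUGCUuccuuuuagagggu
miR-520d-3p: aAAGUGCUucucuuuggugggu
The second set holds 1 example of each seed of the miR-17 cluster, which runs from miR-17 to miR-92a (chr13:91350605-91351391, plus strand), with both arms of miR-106b from the paralogous cluster on chromosome 7.
miR-17-5p: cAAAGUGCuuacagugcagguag
miR-18a-5p: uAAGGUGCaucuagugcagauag
miR-19a-3p: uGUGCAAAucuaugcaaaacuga
miR-92a-3p: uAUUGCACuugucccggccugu
miR-106b-5p: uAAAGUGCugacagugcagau
miR-106b-3p: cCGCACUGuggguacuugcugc
The third set is the miR-200 family, with 2 seeds that differ in 1 base, from chromosomes 1 and 12.
miR-200b-3p: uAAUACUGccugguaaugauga
miR-200c-3p: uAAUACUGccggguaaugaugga
miR-200a-3p: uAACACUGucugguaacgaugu
miR-141-3p: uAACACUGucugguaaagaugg
The fourth set is shown for single assays with large line differences or unequal relatives: let-7b, miR-211, miR-96 and miR-1271, which have the same seed on different chromosomes, and the miR-29 family.
let-7b-5p: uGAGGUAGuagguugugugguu
miR-211-5p: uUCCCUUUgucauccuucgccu
miR-96-5p: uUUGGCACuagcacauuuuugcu
miR-1271-5p: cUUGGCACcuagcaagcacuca
miR-29a-3p: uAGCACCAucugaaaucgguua
miR-29b-3p: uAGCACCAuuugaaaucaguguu
miR-29c-3p: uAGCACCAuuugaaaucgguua

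Each miRNA was measured by quantitative PCR on TaqMan array cards, as a threshold cycle (raw Ct) in which 1 cycle less stands for about 2-fold more RNA. The level of an assay was minus its raw Ct, set against the mean raw Ct of the same sample on the same card, so 0 is an average assay and 1 unit is 1 cycle (log2). Of 501 assays, 374 had a value under 40 cycles in all 6 samples and were compared, 226 of them on card A and 148 on card B. A further 105 had values in all 3 samples of 1 line and in none of the other, 20 had values in some samples, and 2 had none. The samples held values for 420 to 431 assays in 2102Ep and 449 to 451 in NTera-2. Raw values of the third 2102Ep siSOX2 sample stood 1 measured row out of place from row 106 on and were rebuilt from its deposited dCt. All levels are relative to the card mean, and the choice of reference mattered: RNU44 read 17.6 to 17.9 cycles in 2102Ep and 15.7 to 16.6 in NTera-2 on card A, RNU48 read 18.42 to 19.02 and 16.4 to 17.0, and U6 read 14.7 to 15.1 and 10.5 to 10.8. On raw cycles all 3 reference RNAs were thus earlier in NTera-2, while the median raw Ct of the measured assays was 24.49 to 24.83 in 2102Ep and 24.95 to 25.38 in NTera-2.

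The lines differed widely. Of 374 assays, 284 (75.9%) passed an adjusted p of 0.05 in limma's moderated test with Benjamini-Hochberg adjustment, 155 (41.4%) higher and 129 (34.5%) lower in NTera-2 siSOX2 than in 2102Ep siSOX2. The median difference over all assays was 0.08 and the median absolute difference 1.86, against a median SD between replicates of 0.36 in 2102Ep and 0.27 in NTera-2. Differences over 2-fold were seen in 261 of the called assays and over 16-fold in 42, of which 16 were higher and 26 lower in NTera-2. The groups did not overlap in 295 assays (78.9%). An exact permutation test of 3 against 3 samples cannot go below 0.1, so single assays rest on the fit across all assays. Referred to RNU44 and RNU48, 291 assays were called, 24 higher and 267 lower in NTera-2, with a median of -2.49. With the deposited dCt 362 were called, 6 higher and 356 lower, with a median of -5.67. That dCt does not compare the lines, since the constant it subtracts on card B was 16.32 to 16.68 in NTera-2 and 24.41 to 25.01 in 2102Ep. Of the 155 assays called higher, 97 were below 0 with RNU44 and RNU48 and 144 with the deposited dCt. None of the 129 called lower was above 0 with either, an outcome fixed in advance. Both references lower every difference on a card by the same amount, so a lower call could not turn. Directions are therefore directions against the average assay.

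**Figure D1:**
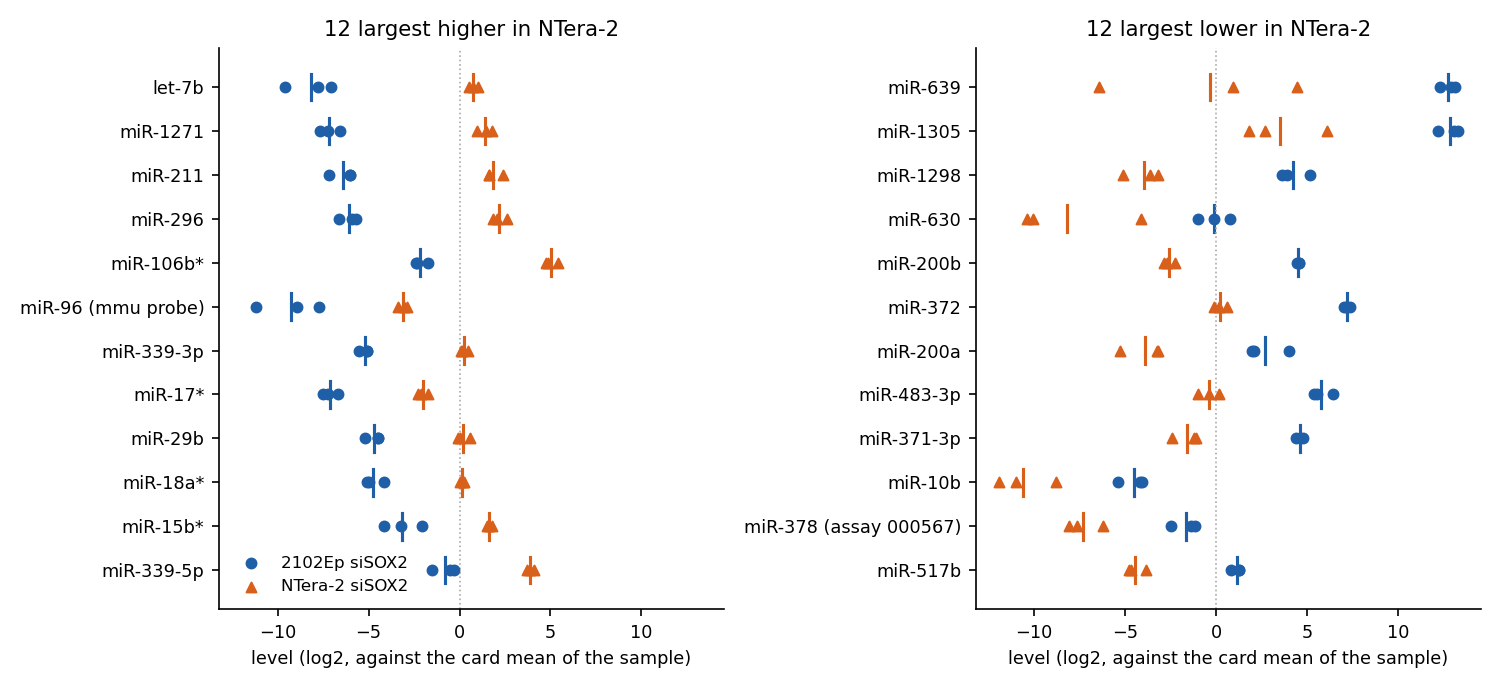
Levels (log2, against the card mean of the sample, horizontal axis) of the 12 assays with the largest difference in each direction. Circles are the 3 2102Ep siSOX2 samples, triangles the 3 NTera-2 siSOX2 samples and vertical ticks the group means. No group overlaps the other; miR-639, miR-1305 and miR-630 have the widest spread, from -6.43 to 4.43, 1.81 to 6.07 and -10.41 to -4.16 in NTera-2.

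Among assays higher in NTera-2, let-7b, a member of the let-7 family that restrains LIN28 and HMGA2, led. Its levels were -7.77, -7.06 and -9.58 in 2102Ep siSOX2 and 0.77, 0.51 and 1.00 in NTera-2 siSOX2, a difference of 8.90 ± 0.62 (SE, n = 3 per group, limma adjusted p = 3.9e-05), or 477-fold (95% interval 169 to 1344), if each cycle doubles the product. In 2102Ep it was a late signal at 31.0 to 34.2 cycles, in NTera-2 a mid-range signal at 23.4 to 24.2. It was the single let-7 assay of 6 in the deposited table that could be compared. let-7c had values in 2102Ep alone, at 28.4, 29.9 and 28.0 cycles, as had let-7f-2*, let-7g* had values in NTera-2 alone, let-7f in 1 2102Ep sample and let-7a in no sample.

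The next were miR-1271, miR-211 and miR-296. miR-1271 had levels of -7.21, -6.59 and -7.67 in 2102Ep and 1.47, 0.95 and 1.78 in NTera-2, a difference of 8.56 ± 0.36. miR-211, encoded in an intron of TRPM1, had levels of -6.00, -6.00 and -7.18 against 1.61, 2.38 and 1.61, a difference of 8.26 ± 0.41. For miR-296 the levels were -5.91, -6.64 and -5.69 against 2.06, 2.61 and 1.83, a difference of 8.25 ± 0.34. All 3 were weak in each 2102Ep sample, at 29.9 to 31.8 cycles, and above the card mean in each NTera-2 sample. Both arms of miR-339 were higher in NTera-2, the 3p arm by 5.46 ± 0.23 and the 5p arm by 4.67 ± 0.35. The minor arm of miR-15b, a relative of miR-16 that targets cyclins and BCL2, was higher by 4.79 ± 0.51.

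Among assays lower in NTera-2, the miR-371 and miR-200 members and a few single miRNAs led. miR-372, which targets the kinase LATS2, had levels of 7.05, 7.15 and 7.37 in 2102Ep siSOX2, among its brightest signals at 16.7 to 17.2 cycles, and of -0.14, 0.13 and 0.62 in NTera-2 siSOX2, a difference of -6.99 ± 0.26, or 127-fold (83 to 195). miR-1298 had levels of 3.62, 3.90 and 5.14 against -3.20, -5.14 and -3.63, a difference of -8.21 ± 0.61. miR-483-3p, from an intron of the growth factor gene IGF2, differed by -6.20 ± 0.41, while miR-483-5p of the same hairpin differed by -0.58 and did not pass the test (adjusted p = 0.087). The largest values, -13.11 ± 2.52 for miR-639 and -9.34 ± 1.07 for miR-1305, rest on signals at 10.7 to 11.9 cycles in 2102Ep, earlier than the U6 reference there, and on NTera-2 samples that spread from 18.5 to 31.0 cycles; without these 2 assays, a setting chosen after seeing the data, 284 of 372 were called. miR-630 spread from 28.7 to 35.6 cycles in NTera-2, with a difference of -8.09 ± 1.65, and neither miR-639 nor miR-630 passed an unequal-variance test of each assay alone (adjusted p = 0.079 and 0.075). 2 assays carry the name miR-378, and they differed in direction: -5.65 ± 0.57 for assay 000567 and 1.73 ± 0.26 for assay 002243.

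The pluripotency clusters divided by line. All 9 assays of the miR-302 cluster were called higher in NTera-2, beside 41.4% of all assays. Their differences were 1.23 to 3.92, with a median of 2.26 against 0.08 over all assays. miR-302d had levels of 6.62, 6.51 and 6.17 in 2102Ep and 10.45, 10.58 and 10.04 in NTera-2, a difference of 3.92 ± 0.24, and its other arm, miR-302d*, differed by 3.70 ± 0.34. miR-302b differed by 2.47 ± 0.21, miR-302c by 2.26 ± 0.20 and miR-302a by 1.71 ± 0.21. The cluster was among the brightest signals of either line, with miR-302b at 16.1 to 16.4 cycles in 2102Ep and 14.0 to 14.3 in NTera-2. Referred to RNU44 and RNU48 the median of the cluster was -0.12 where that of all assays was -2.49, so the direction against the average assay held and the direction on that scale did not.

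The miR-371 cluster went the other way for 2 of its 3 assays. miR-371-3p had levels of 4.38, 4.59 and 4.76 in 2102Ep and -2.42, -1.24 and -1.11 in NTera-2, a difference of -6.17 ± 0.38, beside -6.99 for miR-372. miR-373, whose mature sequence starts 794 bases after the end of that of miR-372, had levels of 3.31, 3.78 and 2.71 in 2102Ep and 4.03, 5.00 and 5.06 in NTera-2, a difference of 1.43 ± 0.40 (adjusted p = 0.014). Within about 1.10 kb of chromosome 19, 2 neighbours were thus 72.0-fold and 127-fold lower in NTera-2 and 1 was higher against the card mean. The direction of miR-373 turned with RNU44 and RNU48 (-0.73, adjusted p = 0.24).

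C19MC was mostly lower in NTera-2. Of 38 assays in the deposited table, 21 were measured in all 6 samples. Of these, 18 were lower in NTera-2, 1 was higher and 2 were not called, with a median of -2.73. Over all assays 34.5% were lower and 41.4% higher. miR-517b had levels of 0.84, 1.25 and 1.27 in 2102Ep and -4.82, -4.66 and -3.85 in NTera-2, a difference of -5.56 ± 0.31. miR-512-3p, at the 5′ end of the cluster, had levels of 3.74, 3.61 and 3.61 against -0.05, -0.26 and -0.59, a difference of -3.96 ± 0.22. The exception was miR-515-3p, a late signal at a mean of 29.9 cycles in 2102Ep and 28.3 in NTera-2, with a difference of 1.91 ± 0.49 that turned with RNU44 and RNU48 (-0.25) and lost its call in the unequal-variance test (adjusted p = 0.093). A further 13 C19MC assays, among them miR-521, miR-520h and miR-516a-5p, had values in all 3 2102Ep siSOX2 samples and in no NTera-2 siSOX2 sample, with mean raw Ct between 24.3 and 28.6, and no assay of the cluster showed the reverse. The last 4 had values in 2 of the 3 2102Ep samples, and of these miR-523 alone had values in NTera-2.

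Members that share the AAGUGCU seed therefore stood on both sides. Of the 9 assays looked up with this seed, 5 were higher in NTera-2, namely the 4 miR-302 members and miR-373. The other 4 were lower: miR-372, miR-520b at -3.21 ± 0.32, miR-520c-3p at -1.88 ± 0.27 and miR-520D-3p at -1.21 ± 0.27. Seeds were not looked up for every assay, so the split holds for these 9 alone. The differences ran from -6.99 to 3.92 within 1 seed. Of the 7 assays looked up with the seed AAAGUGC, 6 were higher in NTera-2, and the seventh was the C19MC member miR-519d at -3.53. Of the same lookup, all 4 assays with AUUGCAC were higher, from 1.85 for miR-367 of the miR-302 cluster to 4.25 for miR-363. Over all assays 41.4% were called higher and 34.5% lower. The assays counted by seed all belong to clusters described in this report, so these counts restate the cluster differences.

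**Figure D2:**
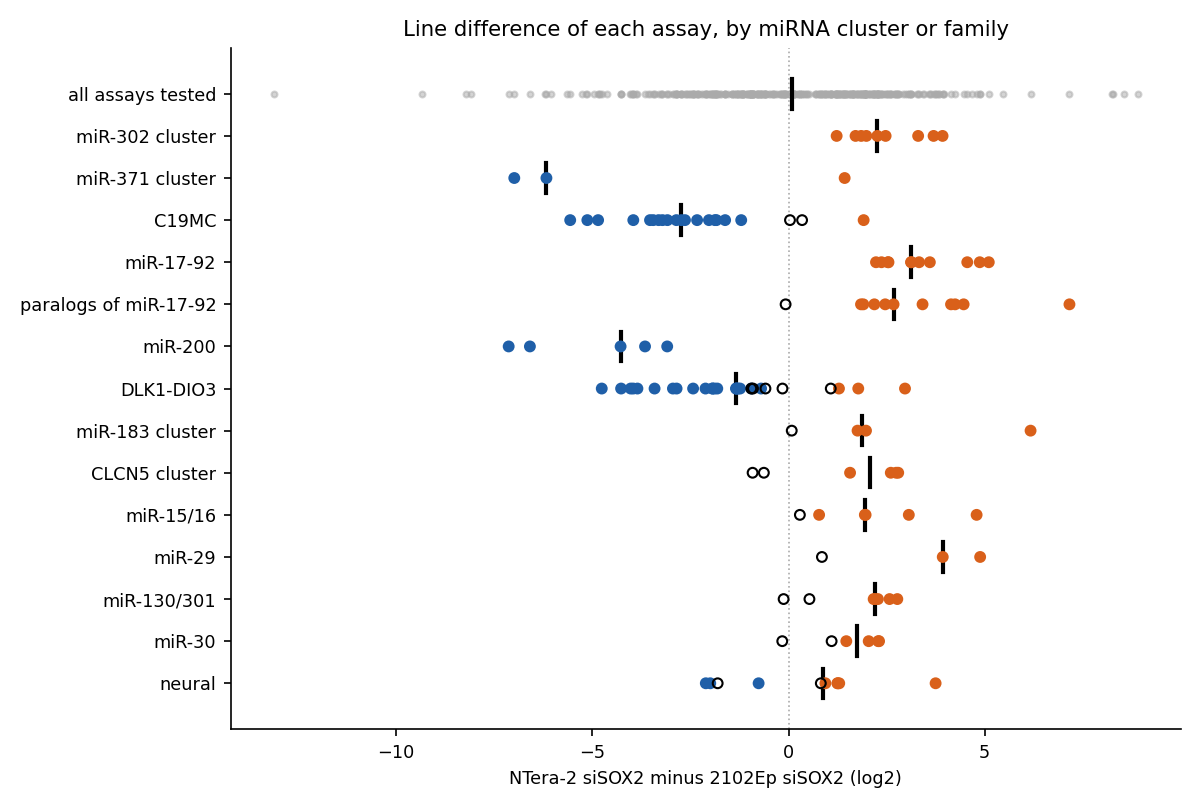
Difference between NTera-2 siSOX2 and 2102Ep siSOX2 (log2, horizontal axis) for every assay measured in all 6 samples, by cluster or family. Filled points passed the adjusted p threshold (right of 0 higher, left of 0 lower in NTera-2), open points did not, and black ticks are medians. The rows of the miR-302, miR-17 and miR-183 clusters and of the miR-15/16 and miR-29 lists lie wholly above 0. That of the miR-200 family lies wholly below 0, and the C19MC row has a median of -2.73 against 0.08 for all assays.

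The miR-17 cluster and its paralogs were higher in NTera-2. All 11 measured assays of the miR-17 cluster were called, between 2.23 and 5.10 with a median of 3.13, and miR-19a* had values in NTera-2 alone. Over all assays 41.4% were called higher. miR-17, which represses the cell cycle inhibitor CDKN1A, had levels of 6.35, 6.18 and 6.55 in 2102Ep and 9.00, 8.81 and 8.91 in NTera-2, a difference of 2.55 ± 0.20. Its neighbours miR-18a, miR-19a and miR-92a differed by 3.13 ± 0.21, 2.53 ± 0.24 and 3.33 ± 0.24. The minor arms differed by more than the major ones for miR-17 (5.10 ± 0.29) and miR-18a (4.87 ± 0.30). Of the 11 measured paralog assays 10 were called, all higher, with a median of 2.68. The largest was miR-106b*, with levels of -2.33, -1.75 and -2.38 against 4.74, 5.39 and 4.88, a difference of 7.16 ± 0.28, whereas miR-106b from the same hairpin differed by 2.68 ± 0.26. Referred to RNU44 and RNU48, the medians of both lists stayed above 0, at 0.96 and 0.30, and with the deposited dCt they were -1.60 and -1.64.

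The miR-200 family was lower in NTera-2 in all 5 measured assays, with a median of -4.28, beside 34.5% called lower over all assays. miR-200b had levels of 4.55, 4.46 and 4.55 in 2102Ep and -2.85, -2.26 and -2.73 in NTera-2, a difference of -7.13 ± 0.23, or 140-fold (96.3 to 204). miR-200a had levels of 3.98, 2.09 and 1.96 against -5.26, -3.22 and -3.26, a difference of -6.59 ± 0.75. From chromosome 12, miR-200c differed by -4.28 ± 0.24 and miR-141 by -3.09 ± 0.38. The direction held under every reference tried for these 4 assays, although RNU44 and RNU48 and the deposited dCt could only lower their differences. 2 members of the same chromosome 1 transcript ran against it: miR-429, which starts 1117 bases after the end of miR-200a, and miR-200a* had no value in any 2102Ep siSOX2 sample and values of 25.7 to 26.6 and 25.20 to 26.96 cycles in NTera-2. An empty cell thus stood beside bright neighbours of the same transcript, and whether it means no RNA or no reading was not tested.

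The imprinted DLK1-DIO3 cluster on chromosome 14 is known as a region whose expression varies among pluripotent lines. Of its 29 measured assays 21 were lower in NTera-2, 3 higher and 5 not called, with a median of -1.34. Over all assays 34.5% were lower, 41.4% higher and 75.9% called in either direction. miR-127 had levels of -1.12, -0.89 and -1.20 in 2102Ep and -5.58, -4.73 and -4.99 in NTera-2, a difference of -4.02 ± 0.27, and miR-411 differed by -4.27 ± 0.34. The 3 higher were miR-770-5p (2.97 ± 0.35), miR-487b (1.78 ± 0.40) and miR-485-5p (1.29, adjusted p = 0.031), and all 3 were below 0 when referred to RNU44 and RNU48, at -0.45, -0.39 and -0.88. miR-485-5p was not called when any 1 NTera-2 siSOX2 sample was left out, with differences of 1.08, 1.39 and 1.39 without replicates 1, 2 and 3. Another 12 assays of the region had values in 2102Ep alone, such as miR-889 at a mean of 24.2 cycles, and 3 in NTera-2 alone.

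Other families gave smaller or mixed differences. In the miR-29 family, which targets collagens and DNA methyltransferases, miR-29b differed by 4.88 ± 0.29 and miR-29c by 3.93 ± 0.27, while miR-29a, with the same seed, differed by 0.85 ± 0.44 and was not called (adjusted p = 0.11), although it was without the second 2102Ep sample (1.32, adjusted p = 0.0080). The miR-15/16 list had 5 of 6 measured assays higher and none lower; miR-16, which the authors paired with U6 as a reference, differed by 3.07 ± 0.19. In the CLCN5 cluster 4 of 6 were higher, among miR-130 and miR-301 assays 5 of 7 and in the miR-30 list 4 of 6, with none lower, beside 41.4% higher and 75.9% called in either direction over all assays. In the neural list 5 of 10 were higher and 3 lower, shares near the 41.4% and 34.5% of all assays. miR-9, a neural progenitor miRNA, was lower in NTera-2, with levels of 5.49, 4.95 and 5.98 against 3.11, 3.55 and 3.43, a difference of -2.11 ± 0.31, and its other arm miR-9* was higher by 0.94 ± 0.22, a call lost with the card median (0.32, adjusted p = 0.26). A similar disagreement was seen for the HOX-cluster miRNA miR-10b at -6.04 ± 0.83 and miR-10b* at 1.98 ± 0.44; miR-10b was at 33.2 to 36.7 cycles in NTera-2, close to the limit of detection, and miR-10b* was -1.44 with RNU44 and RNU48.

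Arms of the same hairpin offered a comparison that the cards' layout largely separates, since the second arm was on the other card in 42 of 57 pairs. The differences had the same sign in 39 of the 57. Both arms were called in 31 pairs, in the same direction in 26 and in opposite directions in 5, which beside miR-9 and miR-10b were miR-149, miR-545 and miR-548d. Across the 57 pairs Pearson's r was 0.52, given as a description because pairs share samples. Between single pairs the gap could be large: miR-106b* exceeded miR-106b by 4.48, and miR-10b* exceeded miR-10b by 8.02.

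The identity of the cells was checked against marker miRNAs. All 8 embryonal carcinoma markers, of the miR-302 and miR-371 clusters, were measured in every siSOX2 sample of both lines, with miR-302b at 16.1 to 16.4 and 14.0 to 14.3 cycles, although miR-371-3p and miR-372 were at 23.74 to 26.96 cycles in NTera-2. Of 5 blood cell markers on the cards 4 were measured in all samples, 3 lower and 1 higher in NTera-2, and miR-142-3p had values in NTera-2 alone, at 28.7 to 29.8 cycles; among them miR-223 of myeloid cells was at 23.0 to 23.4 cycles in 2102Ep and 24.8 to 26.8 in NTera-2, and endothelial miR-126 at 23.2 to 24.0 and 21.5 to 21.9. Of the neuronal markers miR-9 and miR-124a were lower and miR-128a higher in NTera-2. Of the fibroblast markers, miR-143 had values in 2 2102Ep samples and in no NTera-2 sample, and miR-145 in 2 2102Ep samples, at 22.3 and 23.0 cycles, and in all 3 NTera-2 samples, at 23.4 to 23.8. The muscle markers miR-133a and miR-206 were higher in NTera-2 by 1.80 and 1.31 against the card mean, and at -0.36 and -2.10 with RNU44 and RNU48. Their part in the line difference was not tested.

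A further 105 assays could not be compared because 1 line gave no value: 42 were measured in 2102Ep siSOX2 alone and 63 in NTera-2 siSOX2 alone. Beside C19MC and DLK1-DIO3, the assays in 2102Ep alone included miR-892b, miR-1262 and the HOX-cluster members miR-10a* and miR-196b. Minor arms were 10 of the 42 in 2102Ep alone and 19 of the 63 in NTera-2 alone, and 16 of the 42 and 40 of the 63 were on card B. In NTera-2 alone, miR-25* of the miR-106b cluster was at 19.12, 19.01 and 18.97 cycles, and its major arm was measured in both lines. The brightest signals were unusually early for a miRNA: miR-199b at 10.0, 11.8 and 9.93 cycles in 2102Ep, and miR-497 at 8.75, 8.64 and 6.93 and miR-23b* at 9.14, 13.9 and 7.90 cycles in NTera-2. The pattern was nearly the same in NC cells, where 41 of the 42 and 62 of the 63 were again measured in all 3 samples of that line and in none of the other, miR-199b being the exception among the 42. With values under 35 cycles alone taken as measured, the counts were 42 and 61.

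**Figure D3:**
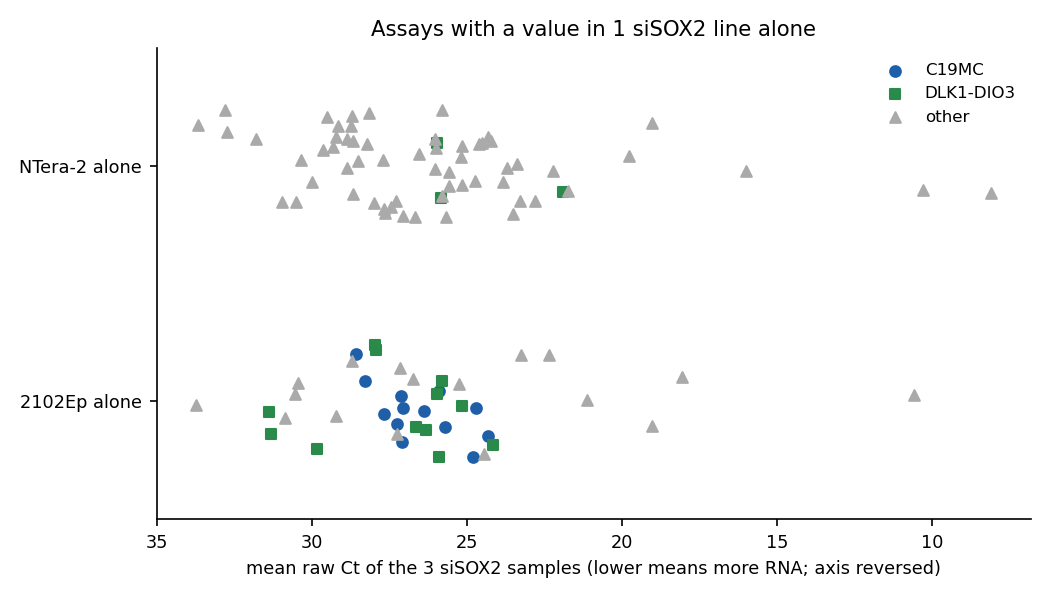
Mean raw Ct over the 3 siSOX2 samples (horizontal axis, reversed, so that more RNA is to the right) of the 42 assays with values in 2102Ep alone and the 63 with values in NTera-2 alone. Circles are C19MC, squares DLK1-DIO3 and triangles all others; the vertical scatter within a row only separates points. The 13 C19MC assays lie in the 2102Ep row and none lies in the NTera-2 row.

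How much of the line difference was already there without SOX2 siRNA was asked by the same comparison in NC cells, which shares no sample with it. There, 278 of 379 assays (73.4%) were called, 151 (39.8%) higher and 127 (33.5%) lower in NTera-2. Of the 369 assays tested in both, 241 were called in both in the same direction, which is 86.1% of the siSOX2 calls and 88.3% of the NC calls, and 1 was called in opposite directions. Across these assays the 2 sets of differences had a Pearson's r of 0.94, a description over assays that share cards and lines. The miR-302 median was 2.42 in NC and 2.26 in siSOX2 cells, the miR-17 cluster median 2.86 and 3.13, the miR-200 median -4.11 and -4.28, and the C19MC median -3.47 and -2.73.

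**Figure D4:**
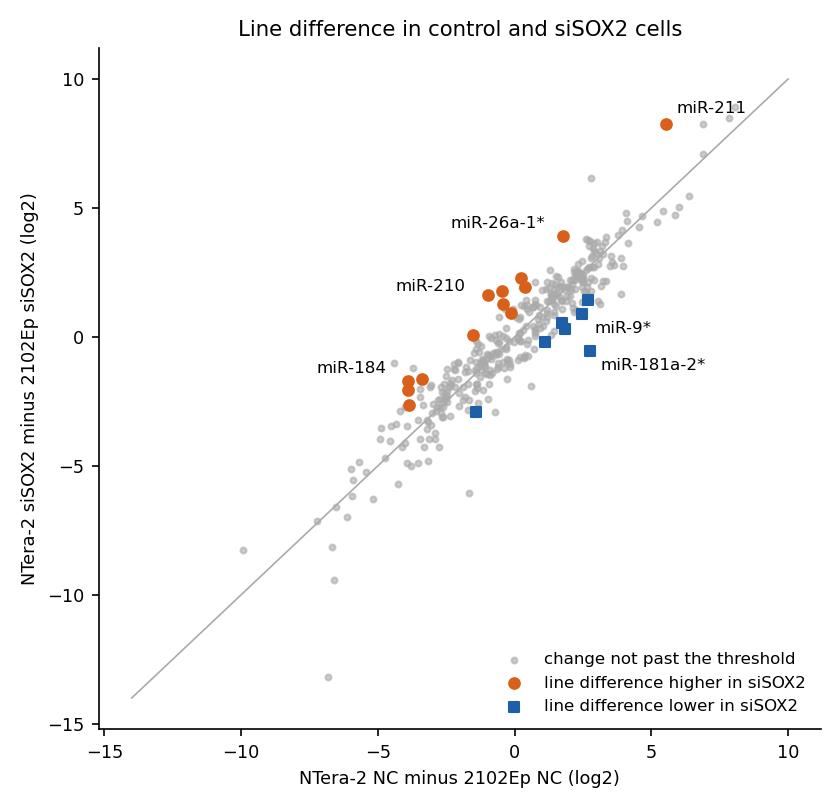
Line difference in NC cells (horizontal axis, log2) against the line difference in siSOX2 cells (vertical axis, log2) for the 369 assays measured in all 12 samples; the diagonal marks equal differences. The 13 round and 7 square coloured points are the assays whose line difference changed at an adjusted p under 0.05, and 6 of them are named.

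The change of the line difference from NC to siSOX2 was then tested itself, as the contrast of the 4 groups over all 12 samples, with levels set against the assays measured in all 12. Of 369 assays 20 (5.42%) passed: the line difference was higher in siSOX2 cells for 13 (3.52%) and lower for 7 (1.9%), and 63 had an unadjusted p of 0.05 or less. The split depended on the reference, with 9 higher and 14 lower with the deposited dCt and 3 higher and 35 lower with RNU44 and RNU48, whose median over all assays was -0.75. With line and replicate number as a block, 2 passed, miR-184 and miR-181a-2*. The labels do not state whether the numbers pair NC with siSOX2 samples. The count also rested on single samples. Leaving out 1 NTera-2 siSOX2 sample gave 6, 8 or 10 calls for replicates 1, 2 and 3, and 1 2102Ep siSOX2 sample 13, 8 or 8. Leaving out 1 2102Ep NC sample gave 9, 13 or 8, and 1 NTera-2 NC sample 19, 24 or 7.

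miR-210, a hypoxia-induced miRNA, changed the order of the lines against the card mean. Its levels in NC cells were 2.78, 3.02 and 3.05 in 2102Ep and 1.75, 2.26 and 1.87 in NTera-2. After siSOX2 they were 1.29, 1.44 and 0.23 in 2102Ep and 2.82, 2.63 and 2.42 in NTera-2. The groups were apart in both states, with 2102Ep above NTera-2 in NC and below it in siSOX2 cells, and the change was 2.63 ± 0.43 (adjusted p = 0.0089). With RNU44 and RNU48 the line difference was -2.51 in NC and -0.53 in siSOX2 cells, and with the deposited dCt it was -4.63 and -2.19, so that 2102Ep had the higher mean in both states on these scales. miR-184 kept its order: levels of 1.16, 1.55 and 1.51 against -2.19, -2.68 and -2.63 in NC cells became 0.71, 0.55 and 0.84 against -0.89, -1.07 and -1.10, a change of 2.19 ± 0.29 (adjusted p = 0.0031). The siSOX2 mean minus the NC mean was 1.48 in NTera-2 and -0.71 in 2102Ep.

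The miR-183 cluster, which is known from sensory cells and pluripotent stem cells, had 2 called changes among its 4 assays, beside 5.42% called over all assays. All 4 changes were above 0, with a median of 1.92 against 0.02 over all assays. miR-183 had levels of -0.74, -0.99 and -0.96 in 2102Ep NC, -2.19, -1.97 and -3.04 in 2102Ep siSOX2, -1.60, -1.19 and -1.25 in NTera-2 NC and -0.44, -0.73 and -0.74 in NTera-2 siSOX2, a change of 2.21 ± 0.39 (adjusted p = 0.0093). With RNU44 and RNU48 its line difference was below 0 in both states, at -1.97 in NC and -0.40 in siSOX2 cells. miR-182 changed by 1.62 ± 0.30 (adjusted p = 0.014), and its line difference in siSOX2 cells, 0.08 with a 95% interval of -0.39 to 0.55, did not pass. With RNU44 and RNU48 the change of miR-182 was not called (limma adjusted p = 0.10), while that of miR-183 was (0.047). For miR-96 the change was 3.39 and did not pass (adjusted p = 0.089), and its line difference in siSOX2 cells was 6.17 ± 0.81, with 2102Ep at 32.3 to 35.1 cycles. The list's median stayed above that of all assays by 1.91 to 2.03 under the 4 references run.

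The line difference also became higher for miR-211 (2.71 ± 0.58, from 5.55 to 8.26), for miR-26a-1* (2.14 ± 0.50) and its major form miR-26a (1.04), for miR-766 (2.05 ± 0.51), for miR-148a (1.82 ± 0.38), for miR-218 (1.69 ± 0.23) and for miR-193b (1.56). Of these, miR-218, encoded within introns of SLIT genes and enriched in motor neurons, had a line difference of -0.43 in NC and 1.26 in siSOX2 cells, and of -1.95 and -0.91 with RNU44 and RNU48. For miR-26a-1*, miR-766 and miR-148a the siSOX2 mean minus the NC mean was -2.28, -2.35 and -1.82 in 2102Ep. In NTera-2 it was -0.14, -0.30 and -0.006. For miR-211 it was -1.37 in 2102Ep and 1.35 in NTera-2. Of the 12 fits that left out 1 sample, miR-26a-1*, miR-766 and miR-26a were each called in 1. miR-148a was called in 5, miR-211 in 6, and miR-218 and miR-193b in all 12. In C19MC the line difference narrowed for 2 called members of 21, miR-519e (-3.38 to -1.61) and miR-518b (-3.86 to -2.63). Over all assays 3.52% were called higher. Each of the 2 was called in 1 of the 12 fits that left out 1 sample. With RNU44 and RNU48 neither was called (limma adjusted p = 0.085 and 0.32), nor was miR-518b with the card median (0.11). The change was above 0 in 19 of the 21 C19MC assays, with a median of 0.95. Over all assays 189 of 369 were above 0, with a median of 0.02. Relative to all assays the C19MC median was 0.86 to 0.94 under the 4 references. The miR-302 cluster, miR-17 cluster and miR-200 lists held no called change among 9, 11 and 5 assays, with medians of 0.24, 0.25 and -0.14. Over all assays 5.42% were called, and at that share lists this short can hold none.

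Of the 7 assays whose line difference became lower, miR-181a-2*, the minor arm of a miRNA known from lymphocyte and neural development, had the largest change, -3.31 ± 0.49 (adjusted p = 0.0051). Its levels were -2.66, -2.07 and -2.35 in 2102Ep NC, -1.30, -0.42 and -0.40 in 2102Ep siSOX2, 0.19, 1.00 and -0.02 in NTera-2 NC and -0.98, -1.12 and -1.70 in NTera-2 siSOX2. NTera-2 was above 2102Ep in every NC sample, and in siSOX2 cells the 2 groups overlapped. miR-9* changed by -1.59 ± 0.35: its levels were -1.03, -0.88 and -0.33 in 2102Ep NC and 1.46, 1.51 and 1.47 in 2102Ep siSOX2, beside 1.57, 2.02 and 1.58 and then 2.33, 2.68 and 2.06 in NTera-2. Line differences of 1.85, 1.10 and 1.75 in NC cells for miR-424, miR-27b and miR-301b became 0.29, -0.21 and 0.54. In the siSOX2 comparison itself neither miR-424 nor miR-27b passed (adjusted p = 0.33 for each), nor did miR-301b (adjusted p = 0.051). miR-135b went from 2.68 to 1.42 and miR-1197, of the DLK1-DIO3 region, from -1.40 to -2.92. miR-10b had a change of -4.37 that did not pass (adjusted p = 0.065).

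**Figure D5:**
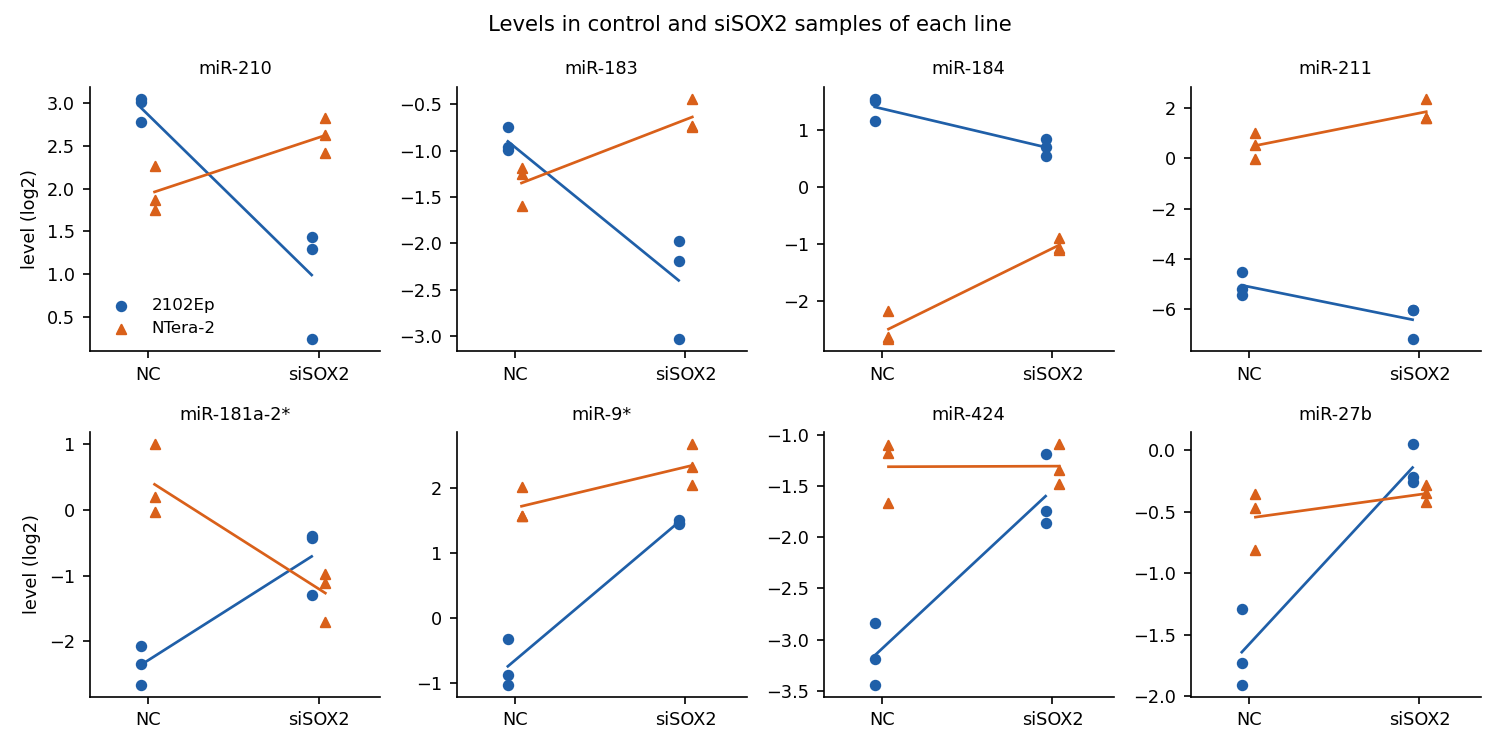
Levels (log2, vertical axis, own scale in each panel) of 8 assays whose line difference changed, in NC and siSOX2 samples. Circles are 2102Ep and triangles NTera-2, with 3 samples each, and lines join the group means. In miR-210, miR-183, miR-181a-2* and miR-27b the lines joining the means cross, and in miR-184 and miR-211 they do not. With RNU44 and RNU48 in place of the card mean, the order of the means changed for miR-181a-2* but not for miR-210, miR-183 or miR-27b.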

How the data were processed

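TaqMan Array Human MicroRNA cards A and B were run on RNA from 12 samples in 4 groups of 3. Per the labels, RNA was reverse transcribed with Megaplex primers and pre-amplified. The authors deposited raw Ct, on a log2 scale, and dCt, that is raw Ct minus a constant per card and sample; the study names DataAssist 3.0 for analysing the cards. On card A the constant is the mean of U6 and miR-16; on card B it lay near 16.3 to 16.9 in NTera-2 and 24.31 to 25.01 in 2102Ep, where U6 has no value on that card, so deposited dCt does not compare the lines. Another deposited table holds the authors' fold changes and p-values and was not used.

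Cards were read from the 2 constants (290 and 211 assays). In 1 column 99.7% of 339 raw values returned to the constant once moved by 1 row. Levels against the card mean were fitted with limma 3.58.1 (lmFit, eBayes) in R 4.3.3, tested on simulated data; lists and figures used Python. Calls were made at a Benjamini-Hochberg adjusted p under 0.05. Members and lists were chosen with earlier results of these data known. Named assays were the 12 largest called differences in each direction with groups apart and a mean raw Ct of 35 or less in the line with more, their other arms, called list members, the 8 largest changes in each direction and up to 10 assays per line measured in 1 line alone; other assays named were chosen after their values were seen. Alternatives changed the reference, the filter, the spread, the test, the block and the samples. No depth applies to PCR cycles; 3 samples per group limit the precision. Replicate numbers did not pair the lines (correlations of 0.010 to 0.069 between same-numbered siSOX2 samples). No 2 replicates of a group held an identical value in an assay measured in all 12 samples, and replicates correlated at 0.94 to 0.98.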

Additional observations from a re-analysis of the deposited data

Results flagged for a closer look

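These 20 assays drew attention because the difference between the lines itself differed between NC and siSOX2 cells, by the contrast of the 4 groups in limma over 12 samples. The line difference (NTera-2 minus 2102Ep, log2) was higher in siSOX2 cells by 2.71 for miR-211, 2.63 for miR-210, 2.21 for miR-183, 2.19 for miR-184, 2.14 for miR-26a-1*, 2.05 for miR-766, 1.82 for miR-148a, 1.77 for miR-519e, 1.69 for miR-218, 1.62 for miR-182, 1.56 for miR-193b, 1.23 for miR-518b and 1.04 for miR-26a. In the other direction the values were -1.21 for miR-301b, -1.26 for miR-135b, -1.31 for miR-27b, -1.52 for miR-1197, -1.55 for miR-424, -1.59 for miR-9* and -3.31 for miR-181a-2*. Groups of 3 samples are too small to test single samples as outliers. Of the 20, 7 were also called with each of the deposited dCt, the card median and the RNU44 and RNU48 references: miR-210, miR-183, miR-184, miR-135b, miR-27b, miR-9* and miR-181a-2*.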

How the results depend on the processing

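The siSOX2 line comparison called 263 to 284 assays when each sample was left out, 284 with 1 mean over both cards, 293 with the card median, 278 with no reference, 281 of 366 at a mean of 32 cycles or less, 385 of 490 with empty cells set to 40 cycles, 265 with an equal-variance and 227 with an unequal-variance test, and 290 with the replicate number as a block; the NC comparison gave 253 to 286, 275 with the block and 216 with the unequal-variance test. The change of the line difference ranged from 6 to 24 called assays when each sample was left out, and was 38 with RNU44 and RNU48 and 2 (miR-184 and miR-181a-2*) with line and replicate number as a block, where same-numbered NC and siSOX2 samples correlated at 0.059 to 0.22 and 6 of 6 siSOX2 and 5 of 6 NC samples correlated best with their own number, a hint from the data and not the design. miR-210, miR-183, miR-184, miR-218, miR-193b and miR-181a-2* were called in each of the 12 fits that left out 1 sample, and with the block their adjusted p was 0.053, 0.054, 0.029, 0.052, 0.063 and 0.016. The cause was not tested. Under RNU44 and RNU48, whose median over all assays was -2.49, the siSOX2 line difference turned to -0.45 for miR-302a, -0.12 for miR-302a*, -0.73 for miR-373, -0.25 for miR-515-3p, -1.31 for miR-29a, -1.44 for miR-10b*, -0.45 for miR-770-5p, -0.39 for miR-487b, -2.08 for miR-182, -2.48 for miR-9*, -0.91 for miR-218, -0.40 for miR-183, -0.87 for miR-128a, -0.36 for miR-133a, -0.75 for miR-135b, -0.35 for miR-149, -0.23 for miR-193b, -2.10 for miR-206, -0.53 for miR-210, -1.24 for miR-26a, -0.31 for miR-367, -0.88 for miR-485-5p, -1.09 for miR-766, -1.63 for miR-301b, -1.87 for miR-424, -1.69 for miR-378 (assay 002243), -0.15 for miR-629 (assay 001562). With the deposited dCt, whose card B constants compare different things in the 2 lines, it turned to -0.39 for miR-1271, -1.79 for miR-106b*, -3.84 for miR-17*, -4.07 for miR-18a*, -4.15 for miR-15b*, -2.12 for miR-302a, -1.35 for miR-302b, -1.56 for miR-302c, -5.02 for miR-302d, -5.25 for miR-302d*, -5.64 for miR-302a*, -2.40 for miR-373, -1.91 for miR-515-3p, -1.28 for miR-17, -0.69 for miR-18a, -1.29 for miR-19a, -0.50 for miR-92a, -1.15 for miR-106b, -2.97 for miR-29a, -6.97 for miR-10b*, -0.76 for miR-16, -5.98 for miR-770-5p, -2.05 for miR-487b, -3.74 for miR-182, -8.01 for miR-9*, -2.57 for miR-218, -2.07 for miR-183, -2.53 for miR-128a, -2.02 for miR-133a, -2.41 for miR-135b, -2.02 for miR-149, -1.89 for miR-193b, -7.63 for miR-206, -2.19 for miR-210, -2.90 for miR-26a, -4.98 for miR-26a-1*, -1.97 for miR-367, -2.54 for miR-485-5p, -6.61 for miR-766, -3.29 for miR-301b, -3.54 for miR-424, -1.57 for miR-126, -7.22 for miR-378 (assay 002243), -5.67 for miR-629 (assay 001562). With no reference it turned to -0.23 for miR-182, -0.0225 for miR-424, and with the card median to 0.22 for miR-27b. Of the siSOX2 line differences named, miR-485-5p lost its call when an NTera-2 siSOX2 sample was left out (1.08 to 1.39), and miR-29a, miR-301b and 1 assay of miR-500 gained one, at 1.32 without 2102Ep siSOX2 replicate 2, 0.64 without 2102Ep siSOX2 replicate 3 and -0.84 without NTera-2 siSOX2 replicate 2. Counts of assays in 1 line alone stayed between 42 and 47 and between 61 and 66. Signals under 12 cycles or near 35 have the least certain levels.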

Other observations

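Some names stand for several assays on the cards, and these did not always give the same line difference. miR-629 was 3.27 ± 0.38 higher in NTera-2 siSOX2 by assay 001562 and -1.62 ± 0.24 by assay 002436, both called, as were both assays of miR-378 in opposite directions. With RNU44 and RNU48 the higher assay of each was below 0, at -0.15 and -1.69. The assays of miR-500 gave -0.63 and -0.92, and neither was called. Which mature sequence each assay reads was not analysed here.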
